A study of Rattus norvegicus with 6 samples.

Results

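The cell cycle and DNA replication genes described here are a list of 40 genes, given by name, that dividing cells use to copy DNA and to separate chromosomes. Of these, 38 were measured by a probe set that the array annotation assigns to a single gene, out of 18166 genes on the arrays, and the brightest such probe set stood for each gene. Birc5 and Cenpe were not analysed here. The 6 Affymetrix Rat Gene 2.0 ST arrays held RNA from 3 Hlirag and 3 diabetic samples. All animals were male Sprague–Dawley rats that entered the study at 5 weeks of age, ate a high-fat diet for 4 weeks and were then made diabetic with streptozotocin (30 mg/kg), which kills pancreatic beta cells. Hlirag rats were next given 0.4 mg/kg/day of the GLP-1 receptor agonist liraglutide over 12 weeks, diabetic rats were given saline, and both fasted for 10 h before the tissue was taken. The labels call the Hlirag samples liraglutide-treated without a dose and give 17 weeks as the age in both groups. That age does not match the 5, 4 and 12 weeks given above. The labels also name cardiac muscle as the tissue and carry a description that speaks of adipose tissue from another experiment. All 6 titles begin with the letters arota. The comparison asked how liraglutide changed gene expression in the diabetic heart. Each group had 6 rats, and whether the 3 arrays of a group came from different rats is not stated, so the errors and p-values cover the spread of these arrays, which may be technical.

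In a dividing cell, E2F factors switch on the genes of DNA synthesis, CDC6 and CDT1 load the MCM helicase onto replication origins, and cyclins E and A with their kinases start the S phase. Cyclin B with CDK1 then drives mitosis, in which Aurora and Polo-like kinases, the kinetochore and kinesin motors move the chromosomes, and CDC20 triggers their separation. Most cardiomyocytes of the adult rat have left the cell cycle, and the dividing cells of adult heart tissue are mostly endothelial cells, fibroblasts and leucocytes. In a tissue sample, fewer dividing cells and less RNA per dividing cell cannot be told apart.

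The deposited values are log2 signals, and a difference is Hlirag minus diabetic throughout. A background level was set from olfactory receptor genes, most of which are silent outside the nose. The 95th percentile of the mean levels of 1184 such genes was 5.19, and 39.4% of all genes lay below it. The same percentile taken on each array was 4.87, 5.33 and 6.66 for the Hlirag arrays and 4.84, 4.90 and 5.35 for the diabetic arrays, so the background was highest on Hlirag replicate 3. The SD over all genes was 1.52 on Hlirag replicate 3 and 1.84 to 1.98 on the other arrays. The tissue label was also checked. The cardiomyocyte gene Myh6, the fast myosin heavy chain of the heart, had 7.88, 3.81 and 4.19 in the Hlirag group and 9.16, 3.76 and 3.93 in the diabetic group. Myh6 and Tnnt2, cardiac troponin T, were thus above background on replicate 1 of each group and below it on the other 4 arrays. The 7 white adipocyte markers measured had a median level of 10.93 to 11.50 on every array, and the skeletal muscle markers were high only on diabetic replicates 1 and 2, with medians of 11.19 and 12.02. The 6 smooth muscle markers measured had medians of 10.45, 9.34 and 7.94 in Hlirag and 10.30, 8.92 and 10.12 in diabetic. Of the 7 brown adipocyte markers measured, Ucp1, Cidea, Cpt1b and Ppargc1a were above background on all 6 arrays. Dio2 was above it on 3, Zic1 on 1 and Elovl3 on 0. Cidea was 11.74 to 12.90 on every array. Ucp1 had 10.75, 12.75 and 12.03 in Hlirag and 10.92, 7.35 and 7.05 in diabetic. Levels of the 9 cardiomyocyte markers measured differed from gene to gene. Ryr2 and Nppb were above background on all 6 arrays, Tnni3 on 5, Myl7 on 4, Myh6, Tnnt2, Myl3 and Mybpc3 on 2 and Nppa on 0, and Myl3 was highest on diabetic replicate 2 (10.20). Their summed linear signal was 344 to 1508 in Hlirag and 362 to 3727 in diabetic. On the 4 arrays numbered 2 and 3, Myh6, Tnnt2 and Nppa were thus below the level of 5.19 while Ryr2 and Nppb were above it. Against the level of each array itself, Nppb passed on 6 arrays, Ryr2 on 5, and Tnni3 and Myl7 on 3 each. Ryr2 was 5.57 on Hlirag replicate 3, below the 6.66 of that array.

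Few genes of the list were measured clearly above background. The mean over the 6 arrays lay below 5.19 for 26 of the 38 genes (68.4%), and 21 genes lay below it on every array. The 8 genes above it on all 6 arrays were Ccnb2, Tyms, Pcna, Mcm7, Mcm3, Mki67, Aurka and Plk1. Against the level of each array itself, Ccnb2 and Tyms alone passed on every array, and 20 genes passed on none. The median of the 38 genes was 4.74, 4.71 and 4.85 in the Hlirag group and 4.75, 4.60 and 4.56 in the diabetic group. The medians of the groups overlapped, and the highest of the 6 was that of Hlirag replicate 3.

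**Figure D1:**
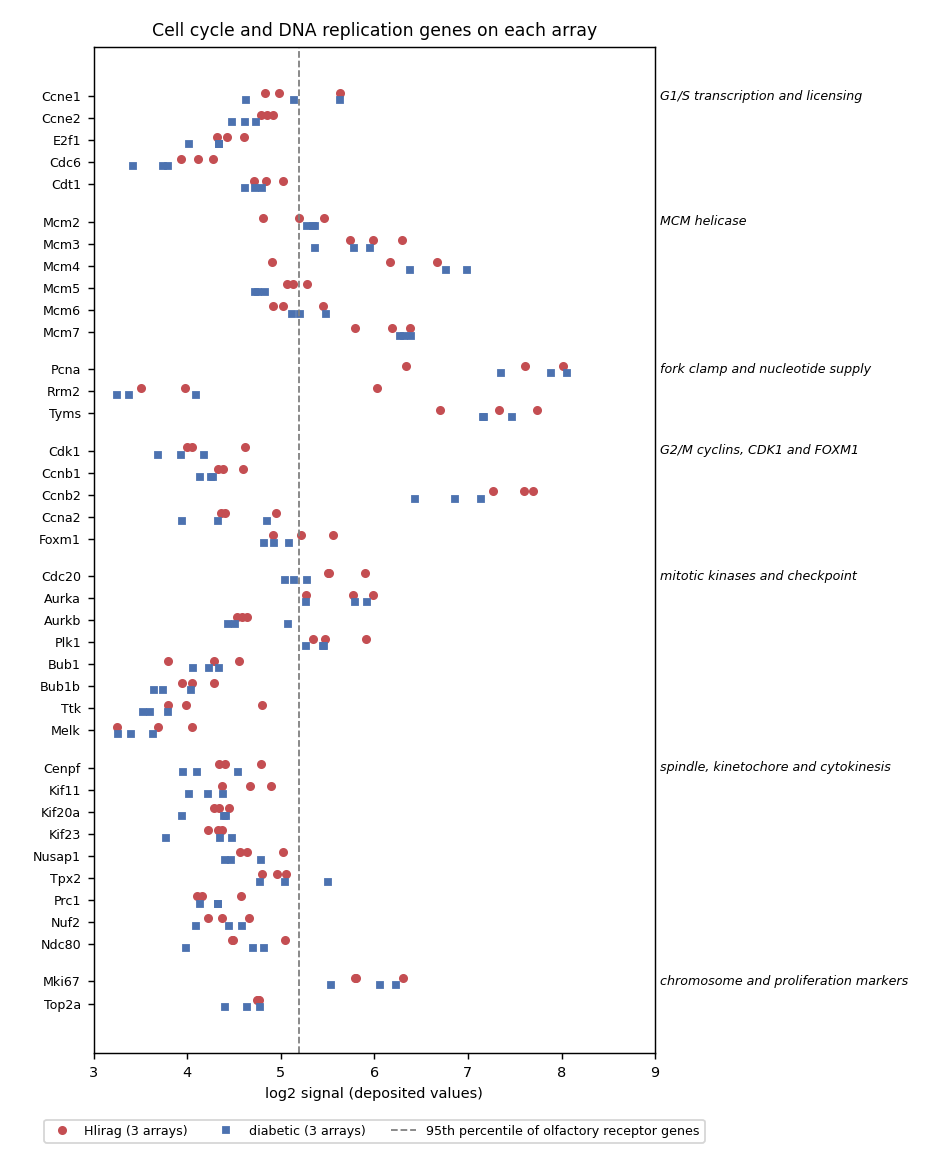
Log2 signal (horizontal axis) of the 38 cell cycle and DNA replication genes on each array, with genes grouped by role. Circles are the 3 Hlirag arrays and squares the 3 diabetic arrays, and the dashed line is the background level of 5.19. Most genes lie left of the line, and the groups separate for 7 genes, Ccnb2 the brightest of them.

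Between the groups, 1 gene of the 38 differed at the study's criterion, which asks for a fold change above 1.5 and an unadjusted p below 0.05. This gene was Ccnb2, which was higher in Hlirag, and no gene was lower. Over all genes 3.78% met the criterion in limma, 1.62% higher and 2.16% lower, so 1 of 38 was near the share of all genes. An unadjusted p under 0.05 was found for the same 1 gene of the 38 and for 4.14% of all genes. The median log2 fold change of the list was 0.17, with 30 genes above 0 (78.9%) and 8 below, while that of all genes was 0.0021, with 50.2% above 0. Genes without a clear signal shifted the same way. The olfactory receptor genes had a median of 0.37, with 87.1% above 0, and all 7159 genes below background had a median of 0.22. The 26 list genes below background had a median of 0.21, and the 12 above it had 0.0015, 6 of them above 0. All 11007 genes above background had a median of -0.16, which is lower than that of the 12 list genes. The list's median was 0.015 after quantile normalization and 0.035 after median centring, which moved the median of all genes to -0.14, and under each of them 22 of the 38 genes were above 0. With Hlirag replicate 3 left out it was 0.13, and that of the olfactory receptor genes was -0.0054. Without this array the 26 list genes below background had a median of 0.15, and all 7159 genes below background had 0.044. The split of all genes at the criterion was 294 higher and 393 lower, and with median centring 128 higher and 383 lower. It turned to 147 higher and 89 lower by the test of the study's methods, and to 199 higher and 151 lower without Hlirag replicate 3. At an adjusted p of 0.05 limma called 0 genes on the arrays, with 752 below 0.05 before adjustment and 236 at the criterion by the test of the study's methods. The lowest adjusted p among the 38 genes was 0.780.

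**Figure D2:**
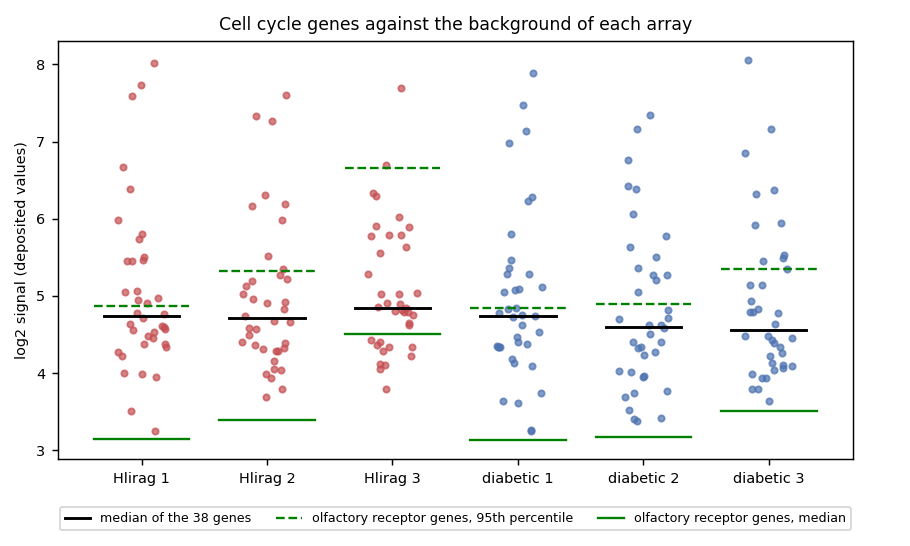
Log2 signal of the 38 genes (points) on each array, the 3 Hlirag arrays on the left and the 3 diabetic arrays on the right, with their median (black), and with the median and the 95th percentile of the olfactory receptor genes of the same array (green). On Hlirag replicate 3 the olfactory receptor genes have a 95th percentile of 6.66, which only Ccnb2 and Tyms exceed.

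For 7 of the 38 genes (18.4%) the groups did not overlap, all of them higher in Hlirag. Over all genes 11.1% did not overlap, 6.42% higher and 4.69% lower. Among genes below background the share higher without overlap was 9.86%, and 5 of the 26 list genes below background were of this kind. Among genes above background the share was 4.18%, and 2 of the 12 list genes above it were of this kind. For the olfactory receptor genes the share was 5.32%. The 7 genes were Ccnb2, Ccnb1, Cdc20, Ttk, Mcm5, Cdc6 and Ccne2, which act in different phases. A promoter sequence was at hand for 5 of them. Genes of mitosis are known to carry CCAAT boxes, bound by NF-Y, and a cell cycle homology region (CHR), bound by the DREAM and MuvB complexes, while genes of the S phase are known for E2F sites. The 250 bases before the start of each gene in the RefSeq table (build GRCr8) are given 5′ to 3′, and capitals mark CCAAT, the CHR letters TTTGAA or TTTAAA, and, for E2F, TTCCCGC and likewise TTGGCGC and likewise TTCGCGC, on either strand. They are shown because these are the genes whose groups separate.
Ccnb2, chr8:79981659-79981908, minus strand: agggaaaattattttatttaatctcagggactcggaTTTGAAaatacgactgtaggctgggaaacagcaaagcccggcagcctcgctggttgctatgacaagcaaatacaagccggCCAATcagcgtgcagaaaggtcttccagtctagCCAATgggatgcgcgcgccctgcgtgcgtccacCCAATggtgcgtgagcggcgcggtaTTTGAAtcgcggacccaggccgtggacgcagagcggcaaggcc
Ccnb1, chr2:33655226-33655475, minus strand: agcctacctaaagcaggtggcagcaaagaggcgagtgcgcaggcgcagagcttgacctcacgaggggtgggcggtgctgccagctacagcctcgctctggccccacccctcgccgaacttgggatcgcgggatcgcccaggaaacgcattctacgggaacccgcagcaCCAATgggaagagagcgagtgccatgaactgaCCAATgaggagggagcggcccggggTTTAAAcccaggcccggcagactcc
Cdc20, chr5:137255800-137256049, minus strand: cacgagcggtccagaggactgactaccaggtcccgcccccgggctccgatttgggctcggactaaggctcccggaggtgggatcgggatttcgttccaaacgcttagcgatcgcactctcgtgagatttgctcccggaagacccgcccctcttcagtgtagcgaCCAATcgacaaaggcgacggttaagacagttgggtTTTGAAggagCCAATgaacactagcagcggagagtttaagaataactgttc
Ttk, chr8:93634389-93634638, plus strand: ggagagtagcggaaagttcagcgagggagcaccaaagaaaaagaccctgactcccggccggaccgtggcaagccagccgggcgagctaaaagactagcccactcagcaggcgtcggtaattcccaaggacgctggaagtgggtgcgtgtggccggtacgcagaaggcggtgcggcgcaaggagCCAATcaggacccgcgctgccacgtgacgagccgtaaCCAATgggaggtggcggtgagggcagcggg
Mcm5, chr19:13488563-13488812, plus strand: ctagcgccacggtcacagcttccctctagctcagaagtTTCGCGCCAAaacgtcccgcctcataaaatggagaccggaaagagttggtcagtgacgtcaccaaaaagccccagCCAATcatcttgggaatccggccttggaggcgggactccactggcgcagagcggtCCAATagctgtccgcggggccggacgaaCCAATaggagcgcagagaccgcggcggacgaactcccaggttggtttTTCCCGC

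In Ccnb2, 3 CCAAT boxes began at positions -134, -101 and -68 from the start, with a CHR at -43 and a second match at -214. Ccnb1 had CCAAT at -82 and -50 and a CHR at -25, and Cdc20 had CCAAT at -86 and -41 and a CHR at -51. Ttk had CCAAT at -67 and -30 and, within the transcript at position 5, a CHR on the other strand. Mcm5 had 3 CCAAT boxes, no CHR, and 3 E2F matches, of which those at -212 and -209 overlap each other. In the windows of 250 bases before and 50 after the start, CCAAT and CHR occurred together in 14 of the 29 list genes with a sequence (48.3%) and in 11.3% of 33365 promoters in the table. CCAAT was found in 65.5% of the list and in 37.5% of all promoters, CHR in 72.4% and 28.2%, and E2F letters in 34.5% and 7.54%. Promoters with the same letters belong to genes that did not separate, such as Top2a, Mki67 and Cdk1, each with CCAAT and CHR. A match of letters is a description and not a bound site.

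Ccnb2 encodes cyclin B2, a partner of CDK1 at the entry into mitosis. Its level was 7.60, 7.27 and 7.69 in the Hlirag group and 7.14, 6.43 and 6.86 in the diabetic group. Each Hlirag sample lay above each diabetic sample, and all 6 lay above the background of their own array. The mean was 7.52 ± 0.22 in Hlirag and 6.81 ± 0.36 in diabetic (SD, n = 3 each), a log2 fold change of 0.71 (SE 0.26, 1.64-fold, 95% interval 0.10 to 1.32, limma adjusted p = 0.780). A second probe set for Ccnb2 read 4.58, 4.46 and 4.72 in Hlirag and 4.44, 3.91 and 3.91 in diabetic. It lay below background on every array and differed by 0.50 without overlap of the groups. Ccnb2 missed the criterion without Hlirag replicate 1 (0.67), Hlirag replicate 3 (0.62), diabetic replicate 2 (0.52) or diabetic replicate 3 (0.73), with median centring (0.57) and with array quality weights (0.45). Without both diabetic replicates 1 and 2, which carry the skeletal muscle signal, it missed the criterion with 0.66 (SE 0.41).

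**Figure D3:**
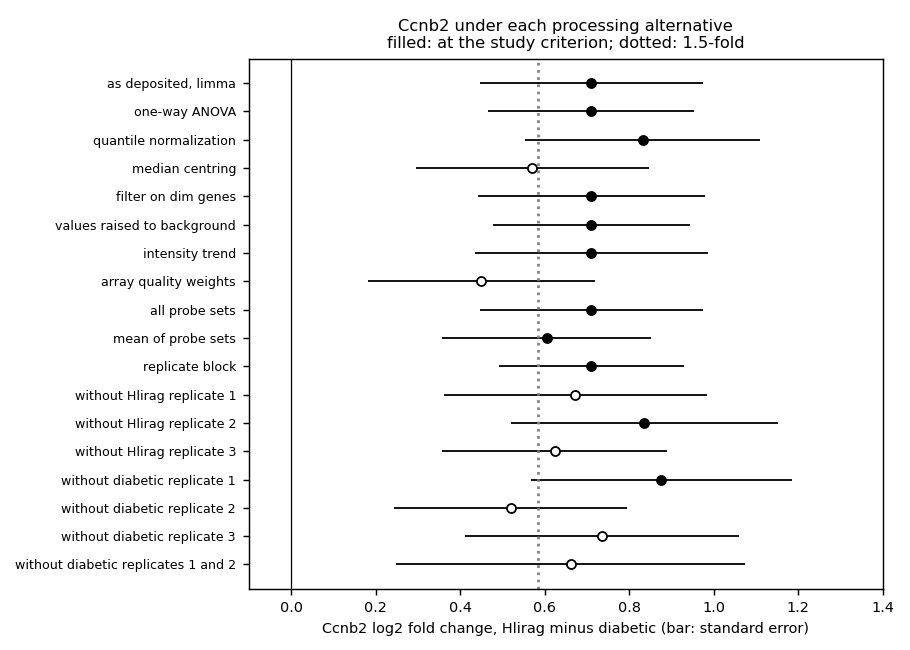
Log2 fold change of Ccnb2 (horizontal axis, Hlirag minus diabetic) under each processing alternative, with the standard error as a bar. Filled points met the study's criterion and the dotted line marks 1.5-fold. The value stayed between 0.45 and 0.88, and several left-out arrays ended the call.

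The other genes of the G2/M step gave no call. Ccnb1, the cyclin B1 gene, had 4.60, 4.39 and 4.33 in Hlirag and 4.13, 4.27 and 4.26 in diabetic. The ranges were apart, yet all values lay below background, and the log2 fold change was 0.22 (SE 0.21). Cdk1, the mitotic kinase, Ccna2, the cyclin of S phase and G2, and Foxm1, a transcription factor of mitotic genes, overlapped between the groups. All 5 genes of this step had a log2 fold change above 0, with a median of 0.29. Cdk1 and Ccna2 were below background on all 6 arrays, and Foxm1 was above it on 2.

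Among the 8 mitotic kinases and checkpoint genes, 7 had a log2 fold change above 0 and none met the criterion. Cdc20, the activator of the anaphase-promoting complex, had 5.51, 5.51 and 5.90 in Hlirag and 5.28, 5.05 and 5.14 in diabetic. Each Hlirag value exceeded each diabetic one, and the log2 fold change of 0.48 (SE 0.22) had a 95% interval of -0.039 to 0.999. Ttk, the MPS1 kinase of the spindle checkpoint, had 3.98, 3.80 and 4.80 in Hlirag and 3.61, 3.52 and 3.79 in diabetic, all below background. Its highest value was that of Hlirag replicate 3, and the difference was 0.55 (SE 0.30). Aurka, Aurora kinase A of the spindle poles, had 5.98, 5.27 and 5.78 in Hlirag and 5.80, 5.27 and 5.92 in diabetic. The groups covered the same range, with a difference of 0.013 and a 95% interval of -0.66 to 0.68. Plk1, Polo-like kinase 1, had 5.47, 5.35 and 5.91 in Hlirag and 5.47, 5.27 and 5.45 in diabetic. It overlapped between the groups (0.18, 95% interval -0.37 to 0.73). Aurkb, Bub1, Bub1b and Melk were below background on all arrays, and their groups overlapped.

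The spindle, kinetochore and cytokinesis genes lay mostly below background. Of 9 measured (Cenpf, Ndc80, Nuf2, Kif11, Kif20a, Kif23, Nusap1, Tpx2 and Prc1) none was above background on all arrays, and the values lay between 3.77 and 5.50. The groups overlapped for each of them. Their log2 fold changes ran from -0.17 for Tpx2, a spindle assembly factor, to 0.44 for Kif11, the kinesin that separates the spindle poles (SE 0.24), with a median of 0.11.

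The usual markers of proliferation did not separate the groups. Mki67, which encodes the Ki-67 antigen of cycling cells, had 5.80, 6.30 and 5.79 in Hlirag and 6.23, 6.06 and 5.53 in diabetic. The group ranges overlapped almost fully, with a difference of 0.026 and a 95% interval of -0.62 to 0.67, which is wider than 1.5-fold in either direction. Top2a, the topoisomerase that untangles replicated DNA, lay below background on every array and overlapped between the groups.

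**Figure D4:**
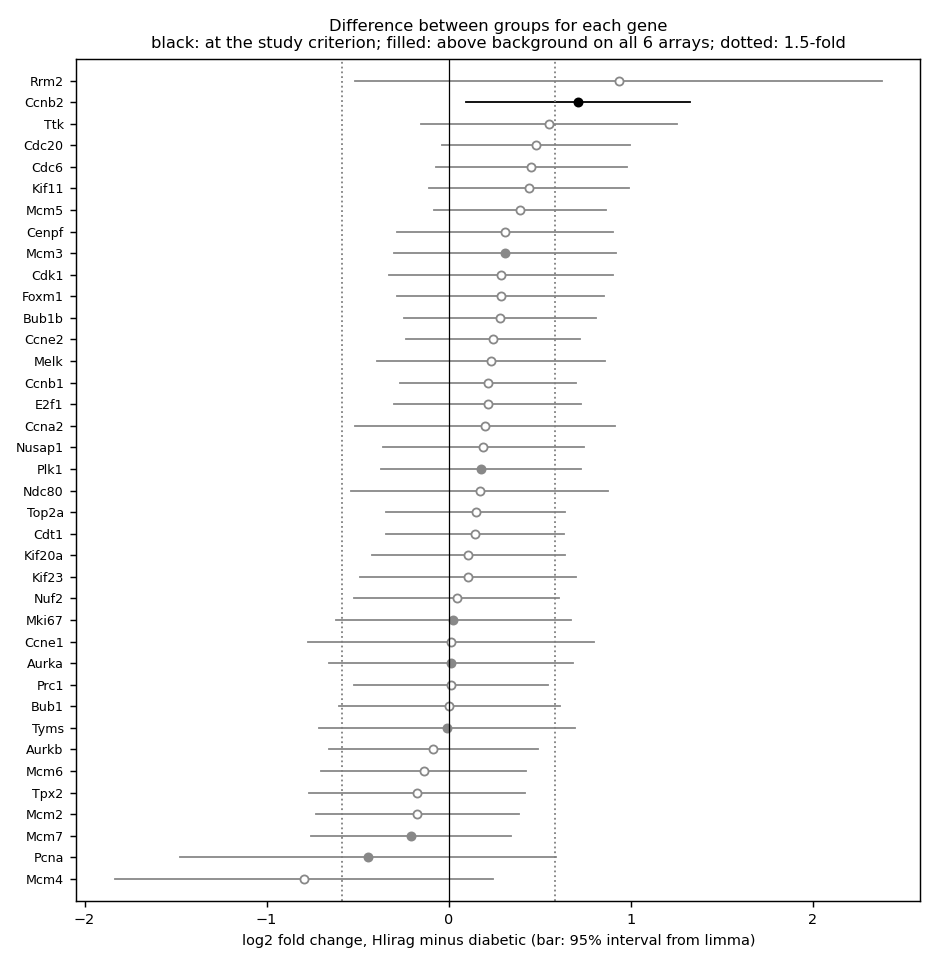
Log2 fold change (horizontal axis, Hlirag minus diabetic) of each of the 38 genes, with the 95% interval from limma as a bar. The black point is Ccnb2, the single gene at the study's criterion, filled points are the 8 genes above background on all 6 arrays, and the dotted lines mark 1.5-fold in either direction. The interval of every gene but Ccnb2 includes 0.

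Replication genes differed in both directions, none at the criterion. The MCM2 to MCM7 subunits form a ring that opens the DNA double strand, and their genes usually rise together in cells entering S phase. Here 2 of the 6 had a log2 fold change above 0 and 4 below, with a median of -0.16. Mcm4 had 6.67, 6.17 and 4.90 in Hlirag and 6.98, 6.77 and 6.38 in diabetic. Hlirag replicate 3 was the lowest by far, and the groups overlapped (log2 fold change -0.79, SE 0.45). Mcm4 was -0.29 without Hlirag replicate 3 and met the criterion without Hlirag replicate 1 (-1.17). A second Mcm4 probe set, below background on all arrays, was also lowest on Hlirag replicate 3 and differed by -0.41. Mcm7 had 6.39, 6.19 and 5.79 in Hlirag and 6.28, 6.39 and 6.32 in diabetic. It was again lowest on Hlirag replicate 3, and the difference was -0.21 (SE 0.24). Mcm3 had 5.74, 5.99 and 6.30 in Hlirag and 5.36, 5.78 and 5.95 in diabetic. Here Hlirag replicate 3 was the highest, the groups overlapped, and the difference was 0.31 (SE 0.26), with 0.31 also for a second probe set. Mcm5 had 5.07, 5.13 and 5.28 in Hlirag and 4.76, 4.72 and 4.83 in diabetic. Its groups were apart, with a difference of 0.39 (SE 0.20), and 5 of the 6 values, all but that of Hlirag replicate 3, lay below the level of 5.19. Against the level of each array itself, Mcm5 passed on Hlirag replicate 1 only. Mcm2 and Mcm6 overlapped between the groups.

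Pcna and Tyms were above background on all arrays, while Rrm2 was above it on 1. Against the level of each array itself, Tyms passed on 6 arrays, Pcna on 5 and Rrm2 on 0. Pcna, the sliding clamp of DNA polymerases, had 8.02, 7.61 and 6.34 in Hlirag and 7.89, 7.35 and 8.06 in diabetic. Hlirag replicate 3 stood more than 1 log2 unit below the other arrays, and without it the difference of -0.44 became 0.047. Tyms, thymidylate synthase, had 7.73, 7.33 and 6.70 in Hlirag and 7.47, 7.16 and 7.17 in diabetic. The mean difference was -0.010 (95% interval -0.71 to 0.69), and without Hlirag replicate 3 it was 0.27. Rrm2, the regulated subunit of ribonucleotide reductase, had 3.51, 3.98 and 6.02 in Hlirag and 3.25, 3.38 and 4.09 in diabetic. Hlirag replicate 3 alone set the difference of 0.93 (SE 0.62), which was 0.18 without it. A second Rrm2 probe set read 4.10 on that array and differed by 0.14 between the groups. A further probe set, shared with Rrm2l1, was also highest on Hlirag replicate 3 (5.69) and differed by 0.44. Of the 12 list genes above background on average, 5 had their lowest value on Hlirag replicate 3, and of the 26 below it 11 had their highest there, the array with the narrowest spread of signals.

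The genes of the G1/S step and of origin licensing lay mostly below background. Cdc6, the loader of the MCM ring, had 4.27, 3.94 and 4.12 in Hlirag and 3.75, 3.42 and 3.79 in diabetic. Each Hlirag sample was above each diabetic sample by a small margin, and the difference was 0.455 (SE 0.22). Ccne2, the cyclin E2 gene, had 4.79, 4.91 and 4.86 in Hlirag and 4.73, 4.62 and 4.48 in diabetic. It did not overlap between the groups either, with a difference of 0.24 (SE 0.21). E2f1, Cdt1 and Ccne1 overlapped, Ccne1 with a difference of 0.014.

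Other genes of the cell cycle were read from 5 lists with 158 genes, of which 135 were measured. At the criterion 2 were higher (1.48%) and 2 lower (1.48%), near the shares of all genes. Ckap2, a protein of the mitotic spindle, had 5.13, 5.27 and 4.53 in Hlirag and 4.03, 4.001 and 4.19 in diabetic. Its groups were apart, though 5 of the 6 values lay below background (0.91, SE 0.26, limma adjusted p = 0.780). Leaving out any single array kept the call of Ckap2, and it was lost with quantile normalization (0.70), with values raised to background (0.027) and without both diabetic replicates 1 and 2 (0.79). Skp2, which marks the inhibitor p27 for breakdown, had 5.30, 5.18 and 6.06 in Hlirag and 4.72, 4.85 and 4.79 in diabetic. Hlirag replicate 3 was the highest and the ranges were apart, with a difference of 0.72 (SE 0.28, limma adjusted p = 0.780). The mean of Skp2 over the arrays, 5.15, lay below background. Its value on Hlirag replicate 3 lay below the 6.66 of that array itself. The call of Skp2 was lost when Hlirag replicate 3 (0.45) or diabetic replicate 1 (0.69), 2 (0.76) or 3 (0.72) was left out, by the test of the study's methods, with median centring (0.58), with values raised to background (0.32) and without both diabetic replicates 1 and 2 (0.72).

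The 2 lower genes were inhibitors of the kinases CDK4 and CDK6. Cdkn2b, which encodes p15, had 5.61, 5.22 and 5.20 in Hlirag and 6.03, 5.66 and 6.25 in diabetic. The ranges were apart, and the difference was -0.63 (SE 0.25, limma adjusted p = 0.780). Cdkn2c, which encodes p18, had 6.80, 6.47 and 5.89 in Hlirag and 7.64, 6.73 and 7.23 in diabetic. Its groups overlapped, and the difference was -0.81 (SE 0.33, limma adjusted p = 0.780). Without Hlirag replicate 2, Hlirag replicate 3, diabetic replicate 1 or diabetic replicate 3 both missed the criterion, Cdkn2b with -0.57, -0.56, -0.61 and -0.50 and Cdkn2c with -0.86, -0.56, -0.59 and -0.80. Without both diabetic replicates 1 and 2 they missed it too, with -0.91 and -0.84, and Cdkn2c also by the test of the study's methods, with quantile normalization (-0.79), with median centring (-0.95) and with values raised to background. Cdkn1a, the p21 gene, which restrains the cycle after DNA damage, did not meet the criterion (-0.70, SE 0.36). It met it, lower in Hlirag, with median centring (-0.84), with array quality weights (-0.98), with the replicate number as a block (-0.70), without Hlirag replicate 3 (-0.95) and without diabetic replicate 2 (-0.98). Cdc25a, a phosphatase that activates CDK2, had 5.96, 5.78 and 5.78 in Hlirag and 6.36, 6.27 and 6.22 in diabetic. It was lower without overlap of the groups, with a difference of -0.44 (SE 0.20), below the 1.5-fold limit.

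By list, the G1 cyclins, CDKs and CDC25 phosphatases had 1 of 16 genes higher and none lower (median -0.017), and the CDK inhibitors, pocket proteins and other E2Fs had none of 23 higher and 2 lower (median -0.16). The origin, fork and nucleotide genes had 0 of 43 at the criterion in limma (median 0.052), and Exo1, a nuclease of DNA repair, Gins2, a subunit of the replicative helicase, and Cdc7, the kinase that starts origins, had the lowest p of these, with differences of 0.63, 0.40 and 0.43. Exo1, below background on every array, met the criterion with the replicate number as a block (0.63) and without Hlirag replicate 1 (0.83). The wider spindle and kinetochore list had 1 of 43 higher (median 0.15, 9 above background on average), and Cenph, a kinetochore protein, met the criterion without Hlirag replicate 1 (1.61). Of 10 p53 target genes 0 met the criterion in limma (median -0.078), and Ccng1, a cyclin that p53 induces, had -0.62 (SE 0.50) and met the criterion without diabetic replicate 3 (-1.12).

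Markers of cell types that could hold dividing cells were set beside these values. The summed linear signal of 10 macrophage markers was 917 to 2199 in Hlirag and 1603 to 1741 in diabetic, and that of 11 lymphocyte markers was 637 to 1031 in Hlirag and 665 to 1145 in diabetic. These ranges overlapped, as did those of 8 neutrophil and marrow markers, with 396 to 722 in Hlirag and 374 to 466 in diabetic. Of the lymphocyte markers, Cd3d, Cd3e, Cd3g, Cd2 and Ms4a1 were above background on 0 arrays. Cd5, Cd4 and Ptprc were above it on 6, Cd8a and Cd79a on 5 and Cd79b on 4. Of the neutrophil and marrow markers, Mpo was above it on 6, Camp on 4 and S100a9 and Prtn3 on 2. S100a8 was above it on 1, and Elane, Ltf and Csf3r on 0. Cd4 and Mpo were the brightest of their lists on every array. Whether these sums follow the numbers of lymphocytes or neutrophils was not tested. The 7 endothelial markers summed to 1614 to 2285 in Hlirag and 1903 to 2398 in diabetic, and the 8 fibroblast markers to 3607 to 14911 in Hlirag and 6093 to 10723 in diabetic. The part of these cell types in the difference of Ccnb2 was not tested. The sums of 6 skeletal muscle markers were 283 to 344 in Hlirag and 319 to 24990 in diabetic, and those of 8 nerve markers 605 to 619 in Hlirag and 690 to 13368 in diabetic, both high on diabetic replicates 1 and 2. The 7 brown adipocyte markers summed to 8773 to 17510 in Hlirag and 4465 to 9607 in diabetic. Of these, Ucp1 (log2 fold change 3.40, SE 1.01) and Cidea (0.72, SE 0.29) met the criterion, higher in Hlirag, and none was lower at it. Both had groups that overlapped, and limma gave each an adjusted p of 0.780.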

How the data were processed

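RNA of 3 Hlirag and 3 diabetic samples, described in the methods as cardiac tissue, was read on Rat Gene 2.0 ST arrays (Affymetrix). The authors scanned them and made the deposited log2 values with Expression Console 1.4.1. The summarisation, normalization and centring are not given in the sources used here. The log2 unit was read from the values, and the median over 36685 probe sets was 4.94 to 5.39. Of these, 18511 named 1 gene, 575 several and 17599 none. The brightest single-gene probe set stood for each of 18166 genes. Samples were grouped by their titles.

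limma 3.58.1 in R 4.3.3 compared the groups (lmFit, then eBayes, with no covariate), and the Benjamini-Hochberg adjustment ran over the 18166 genes. The criterion (unadjusted p under 0.05, fold change over 1.5) follows the study's methods, which take p from a one-way ANOVA, run as an alternative. Arrays have no read depth, and their number limits the precision. The smallest two-sided p of an exact permutation test on 3 and 3 arrays is 0.1. The limma script was tested on simulated data. Genes given on every array are those at the criterion, those whose groups do not overlap, those above background on all arrays and, chosen after their values were seen, those past 1.5-fold. In each further cell cycle list the 3 genes with the lowest p could be named. The 40 genes were listed by name, with no measured value in the rule, but they and the other lists were chosen with earlier results of these data known. Summed signals add the linear values of a list's genes. Gene numbers of all 38 genes matched the GRCr8 gene table, used for names. Promoters came from RefSeq, with 29 of the 38 matched. As alternatives, arrays were left out, quantile normalized, median centred or weighted by quality, dim genes were filtered out or raised to background, limma's trend was used, probe sets were averaged or all kept, and replicate numbers entered as a block.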

Additional observations from a re-analysis of the deposited data

How the results depend on the processing

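Of 513 values for 31 named genes under 17 alternatives, 443 kept their direction and their side of the criterion, 32 lost the call, 12 gained it and 18 turned sign, none of the last in a called gene. The other 8 were exactly 0 with values raised to background, which leaves no direction. The genes at the criterion, 687 in all, numbered 236 by one-way ANOVA, 214 with values raised to background, 286 without both diabetic replicates 1 and 2, and 226 to 2018 with single arrays left out. Of the 38 cell cycle genes, 0 met it with median centring, with array quality weights or without both diabetic replicates 1 and 2, and 0 to 1 with single arrays left out, where the 1 was Mcm4 without Hlirag replicate 1 and Ccnb2 otherwise. Their median was 0.015 with quantile normalization, 0.035 with median centring, 0.0015 over the 12 genes left by the filter on dim genes, 0 with values raised to background and 0.057 with array quality weights. The quality weight was 0.27 to 0.93 for 5 arrays and 9.20 for diabetic replicate 1. Sign changes were seen for Mki67 with median centring (-0.11) and array quality weights (-0.20), for Aurka with quantile normalization (-0.060), median centring (-0.13), array quality weights (-0.035) and without both diabetic replicates 1 and 2 (-0.25), for Tyms with quantile normalization (0.11), array quality weights (0.030) and without both diabetic replicates (0.088), and for Ccng1 without both (0.40). The cause was not tested. With single arrays left out Mki67 ranged from -0.18 to 0.17, Aurka from -0.18 to 0.21, Pcna from -0.79 to 0.047 and Tyms from -0.25 to 0.27.

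The replicate number as a block gave 1117 genes at the criterion and 3 of the 38, Ccnb2, Rrm2 and, lower, Mcm4. Arrays with the same number correlated in their deviations by 0.32, 0.04 and 0.15 for numbers 1 to 3, and those numbered 1 and 3, but not 2, correlated best with their own number. Both arrays numbered 1 also carry the Myh6 and Tnnt2 signal. No source says what the numbers stand for, and since the correlation for number 2 was near 0 they were not taken as pairs. Signal over background limits these results, since 26 of the 38 genes lie below it on average.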
